A study of Mus musculus with 6 samples.

Results

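The genes described here are those that changed over time in mouse embryonic fibroblasts given the factor combination O(5R)SK, which was measured on 3 of the 6 arrays of the study, 1 array each on days 3, 5 and 7. The fibroblasts came from B6CBAF1/J embryos, received SOX2 and KLF4 together with an OCT4 that the labels call 5R, and were grown in embryonic stem cell medium with 15% FBS and LIF. The labels do not spell out the name 5R. The other 3 arrays held fibroblasts of the same strain, medium and days that received wild-type OCT4 with SOX2 and KLF4, named O(WT)SK. SOX2, KLF4 and the medium were therefore common to every array, and uninfected fibroblasts were not analysed here. Nothing in the labels says whether the days came from separate cultures. With 1 array per day no replicate error exists, so every statement below is a value or a count and none carries a test.

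In reprogramming, transcription factors brought into a somatic cell drive it toward an embryonic stem cell state. OCT4 is the product of Pou5f1, and it acts with SOX2 and KLF4 to maintain that state. In fibroblasts the first days of the process are known for a loss of mesenchymal and contractile gene expression and a gain of epithelial genes such as Cdh1, whereas the network around Nanog is known to come on late and in few cells. Cell cycle inhibitors of the Cdkn2a locus are known to limit how many cells are converted.

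A gene was called bright when its mean intensity on the 3 O(5R)SK arrays was above 200, which held for 8893 of 18193 genes, each read by the probe set with the highest mean. The genes nearest that limit were Bmp6 and Cyb5d2 at 199.7 and 199.6 on the dim side and Crtc1 and Zfp748, both at 200.01, on the bright side. Changes are given as differences of log2(intensity + 16), a scale that understates the change of dim genes. A rise or fall means a change of at least 2-fold on that scale, and a difference between days on 1 array each has no replicate check. The 2% trimmed mean was 500 on each array, but the median over all probe sets was 59.0, 61.0 and 68.0 on days 3, 5 and 7 in O(5R)SK, against 59.4, 61.3 and 61.4 in O(WT)SK. The 3′ to 5′ signal ratio of the dap spike was 3.33, 2.23 and 2.74 in O(5R)SK, against 2.20, 2.00 and 2.12 in O(WT)SK. For the mouse Gapdh control probe sets that ratio was 0.797, 0.793 and 0.793 in O(5R)SK, against 0.797, 0.768 and 0.803 in O(WT)SK. As measures of error, 18 probe sets of hybridisation controls changed between day 3 and day 7 by -0.52 to 0.14 (log2), and the net changes from 2 bright probe sets of the same gene differed by a median of 0.23 over 3487 genes, with a 95th percentile of 0.83. Of 106 such genes whose brighter probe set changed at least 2-fold, the other probe set changed the same way in 102 and by at least 2-fold in 56.

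Markers of the labelled cell type were present on all 3 days. Of 8 fibroblast markers 7 were bright, and their summed intensity was 56152, 51831 and 49465 on days 3, 5 and 7. Col1a1, a subunit of collagen type I, read 5254, 6014 and 6076, and Thy1, a surface glycoprotein of fibroblasts, read 9385, 6967 and 5592. The cells thus kept a fibroblast signature through day 7, with Thy1 lowest on the last day. Among the delivered factors, Pou5f1 read 4087, 4042 and 4803 in O(5R)SK and 2290.1, 2292 and 2741 in O(WT)SK. Klf4 read 2897, 3027 and 3419.5 in O(5R)SK and 3008, 2861 and 3449 in O(WT)SK. The Sox2 probe set stayed near the floor of the array, at 4.84, 21.3 and 6.83 in O(5R)SK and 16.5, 31.7 and 34.1 in O(WT)SK, although SOX2 was delivered to all cultures. Whether these probe sets read the delivered transcript is not given in the sources used here. Myc, which was not among the named factors, read 2337, 2062 and 1770.0 in O(5R)SK. None of the 4 factor genes changed 2-fold between day 3 and day 7 in O(5R)SK.

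As deposited, rises past 2-fold outnumbered falls, although 51.1% of all bright genes had a net change below 0. Between day 3 and day 7, 254 bright genes rose (2.86% of 8893) and 116 fell (1.3%). After quantile normalization of the 3 arrays the numbers were 220 (2.47%) and 130 (1.46%). When the arrays were instead set to a common median, 172 genes rose and 174 fell, so that rises made up 49.7% of the calls with that scaling and 68.6% as deposited. Setting a common median moved the median net change of all bright genes to -0.17 (log2), against -0.01 as deposited. Under the other alternative settings tried, rises made up 61.8% to 67.7% of the calls. The excess of rises over falls was thus absent with a common median only, and its size depended on the setting. Gene groups are given below with their quantile-normalized medians. The limit on brightness uses the mean of the same 3 arrays, so a gene that is dim on one day can pass it through the other days. Such members are given where they are among a list's rises or falls. Brightness moved with the shift too, since the median net change was 0.06 at intensities of 200 to 1000, -0.06 at 1000 to 10000 and -0.21 in the 374 genes above 10000, where it was -0.02 after quantile normalization.

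The 2-day steps split this change into shapes. From day 3 to day 5, 61 bright genes rose (0.686%) and 28 fell (0.315%). From day 5 to day 7, 56 rose (0.63%) and 11 fell (0.124%), and after quantile normalization 17 fell in this interval (0.191%). A gene was called graded when both steps went the same way by at least 0.5 (log2), and one-step when a single step reached 2-fold while the other moved by less than 0.5. By these limits 132 genes rose in a graded way (1.48%) and 58 fell in a graded way (0.652%). Early one-step changes, with the 2-fold step before day 5, numbered 21 rises (0.236%) and 16 falls (0.18%). Late one-step changes, with that step after day 5, numbered 13 rises (0.146%) and 3 falls (0.0337%). A further 4 genes peaked on day 5 (0.045%) and 18 had their lowest value there (0.202%), with both steps of at least 0.5. The graded shape held 132 of the 254 net rises and 58 of the 116 net falls, and 94 rises and 41 falls met no shape. After quantile normalization the graded course held 112 rises (1.26%) and 65 falls (0.731%), the early one-step course 18 rises (0.202%) and 15 falls (0.169%), and the late one-step course 12 rises (0.135%) and 5 falls (0.0562%), with 4 peaks (0.045%) and 19 troughs (0.214%). Genes that held the same course under both scalings included 109 graded rises, 56 graded falls and 10 troughs. More than 50% of the net change lay before day 5 in 123 of the 254 rises and in 74 of the 116 falls.

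**Figure D1:**
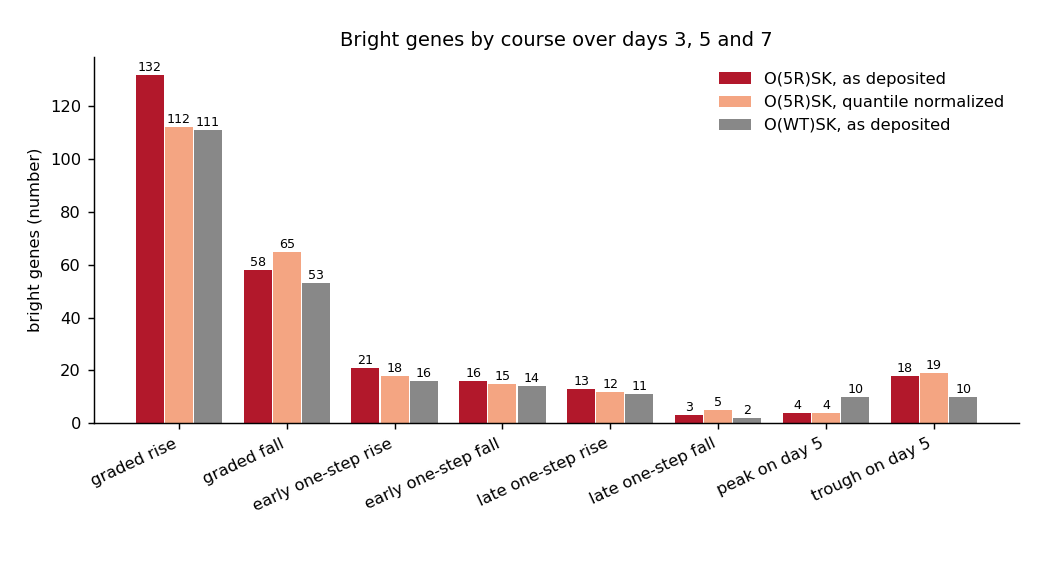
Number of bright genes in each course over days 3, 5 and 7 (vertical axis, from 0), for O(5R)SK as deposited, O(5R)SK after quantile normalization and O(WT)SK as deposited. Graded rises are the most numerous course in all 3 sets, at 132, 112 and 111 genes, and late one-step falls number 3, 5 and 2.

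**Figure D2:**
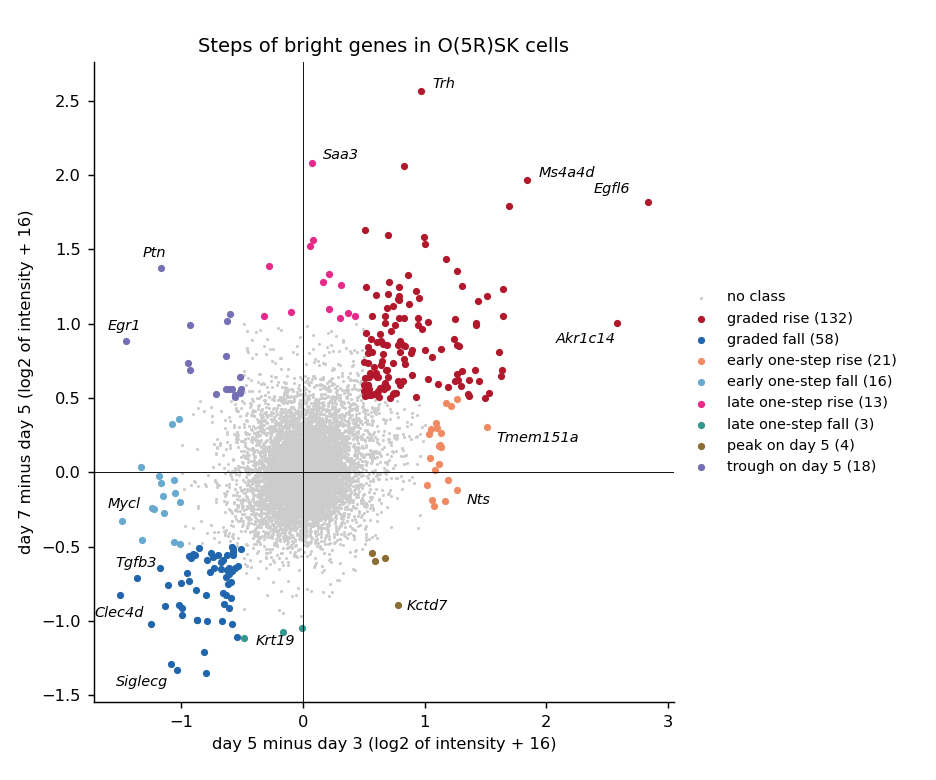
Each point is 1 bright gene in O(5R)SK cells, placed by its change from day 3 to day 5 (horizontal) and from day 5 to day 7 (vertical), both in log2 of intensity + 16. Graded rises fill the upper right and graded falls the lower left, while Saa3 lies near 0 on the horizontal axis and Nts near 0 on the vertical axis.

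The 6 leading graded rises included genes of secreted, membrane and enzyme proteins. Egfl6, which encodes a secreted protein with EGF repeats, read 15.2, 206 and 768 on days 3, 5 and 7, a net rise of 25.1-fold on the scale used. Akr1c14, a steroid-converting aldo-keto reductase, read 732, 4449.6 and 8926, a 12-fold rise of which most lay in the first step. Trh, the precursor of thyrotropin-releasing hormone, read 58.4, 129.7 and 844, with most of its 11.6-fold rise in the second step. These 3 genes thus reached their day 7 level along different paths although both of their steps passed 0.5. Ms4a4d, of a family of membrane-spanning proteins, read 126, 492 and 1968 and Mpzl2, an adhesion protein of epithelia, read 113, 401 and 1425, each with nearly equal steps on the log2 scale. Elobl read 132, 246 and 1075. In O(WT)SK the same probe sets read 44.5, 140.0 and 319 for Egfl6, 766, 4034 and 6053 for Akr1c14 and 130.3, 279.9 and 547 for Mpzl2. Net changes for all 6 genes were positive in both combinations, and Egfl6 changed by 4.65 in O(5R)SK and 2.47 in O(WT)SK, Mpzl2 by 3.48 and 1.95. The second bright probe set of Mpzl2 changed by 3.57 in O(5R)SK.

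Among the graded falls, a peptide hormone precursor, leukocyte lectins and a smooth muscle protein led. Pmch, the precursor of melanin-concentrating hormone, read 2879.8, 1346 and 541, a 5.2-fold fall. Siglecg, a sialic acid-binding lectin known from B cells, read 4040.0, 1967 and 772, and Clec4d, a lectin receptor of myeloid cells, read 484, 160.3 and 83.3. Lmod1, which nucleates actin filaments in smooth muscle, read 1235, 511 and 244. Each of these 4 genes lost more than 4-fold over the course, and for each day 5 lay between the outer days. Sprr2k, of the small proline-rich proteins of cornified epithelia, read 4212, 2413 and 937. Tgfb3, a ligand of the TGF-beta pathway that supports the mesenchymal state, read 7764, 3001 and 1827, with the greater step before day 5 (-1.37, then -0.71 on the log2 scale). In O(WT)SK Pmch read 1497, 627 and 317, lower than in O(5R)SK on each day, while its net change was -2.38 in O(5R)SK and -2.18 in O(WT)SK.

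**Figure D3:**
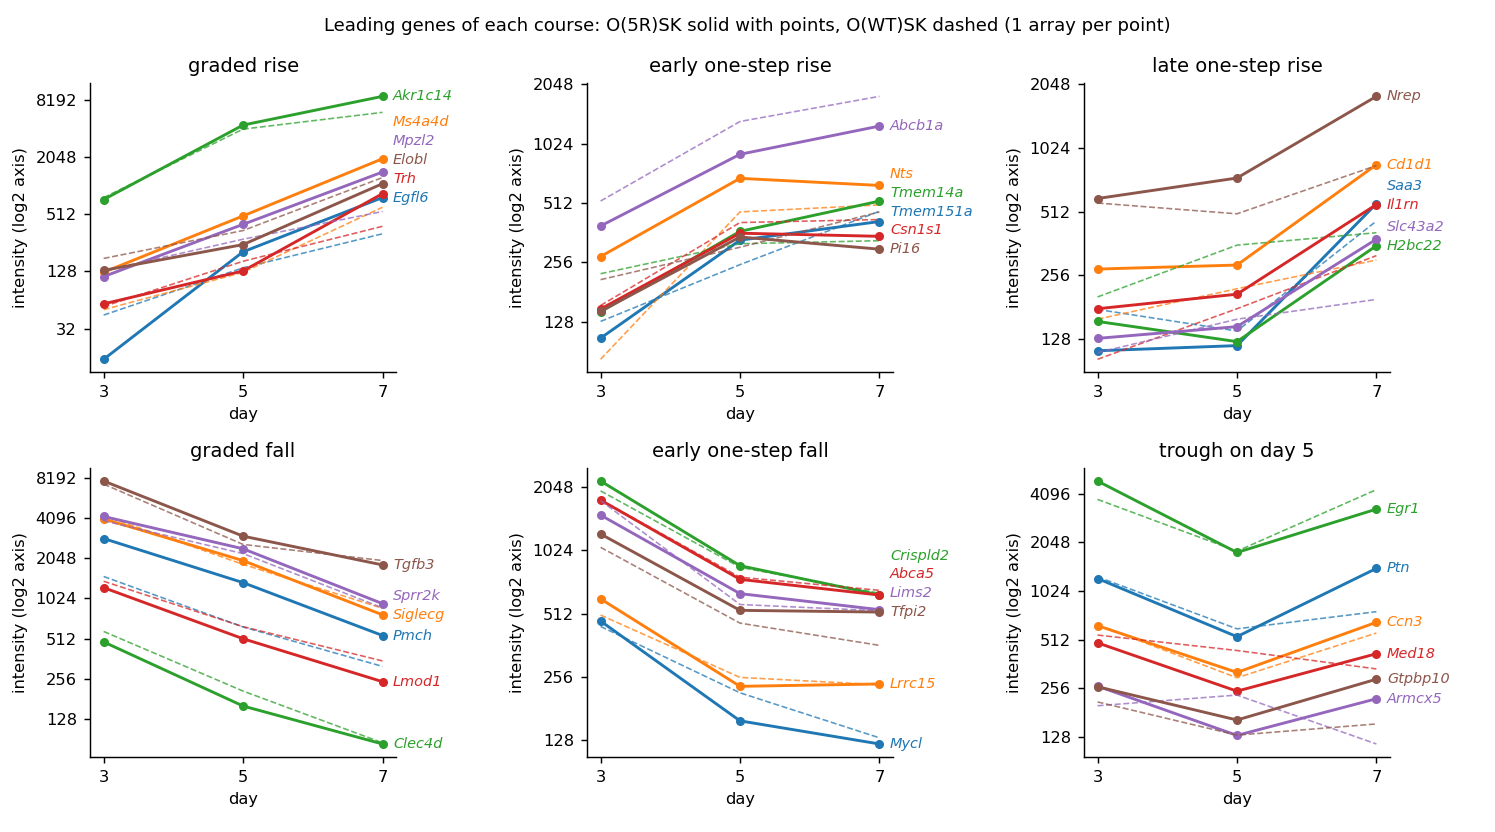
Intensity on a log2 axis against day for the 6 leading genes of 6 courses, 1 array per point, with O(5R)SK as solid lines with points and O(WT)SK as dashed lines of the same colour. Graded genes move in both intervals, while early genes move by less than 0.5 (log2) after day 5 and late genes by less than 0.5 before it.

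The 6 leading early one-step rises divided into 3 that were level after day 5 and 3 that went on upward by less than 0.5 (log2). Nts, the precursor of neurotensin, read 274, 683 and 628. Csn1s1, a milk casein, read 148, 359.7 and 347, and Pi16, a secreted peptidase inhibitor, read 145, 344 and 298. The day 7 value of all 3 was slightly below that of day 5. Tmem151a read 106, 332 and 412, Tmem14a read 144, 368 and 523, and Abcb1a, the P-glycoprotein drug exporter, read 391, 904 and 1256. After day 5 these last 3 moved by 0.30, 0.49 and 0.47 (log2), and Tmem14a and Abcb1a thus lay close to the limit of 0.5 that separates early from graded. The second bright probe set of Abcb1a gave steps of 1.21 and 0.44. For Pi16 the net change of 0.97 (log2) was itself below 2-fold.

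The early one-step falls were led by genes of different roles. Mycl, a relative of Myc, read 471, 157 and 122. Lrrc15, a membrane protein of activated fibroblasts, read 602, 230.1 and 236, and its second bright probe set gave steps of -1.05 and -0.08. Lims2, an adaptor of focal adhesions, read 1511, 637 and 534. In these 3 genes the value dropped before day 5 and then moved by -0.33, 0.04 and -0.25 (log2). Tfpi2, a secreted inhibitor of serine proteases, read 1228, 530.5 and 520.5, Abca5, a transporter of the ABC family, read 1782, 746 and 627, and Crispld2, a secreted matrix-associated protein, read 2197, 866 and 629. The other probe sets of Crispld2 placed it among the graded falls, with steps of -0.86 and -0.66 for the brighter of them.

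Late one-step rises were led by an acute-phase gene. Saa3, a serum amyloid that responds to inflammation, read 113, 119.7 and 558, a 4.23-fold rise after day 5 alone. Il1rn, the secreted antagonist of the interleukin-1 receptor, read 179, 209 and 552, and Cd1d1, which presents lipid antigens, read 274, 287 and 851. All 3 moved by at most 0.21 (log2) before day 5. The second bright probe set of Il1rn, though, gave steps of 0.72 and 1.17, a graded shape, and that of Cd1d1 gave a late step of 0.56. Nrep read 589.6, 736 and 1784, with a late step of 0.45 from its second bright probe set, the amino acid transporter gene Slc43a2 read 129.5, 147 and 379 and the histone gene H2bc22 read 156, 125 and 354. In the 3 late falls, Krt19, a keratin of simple epithelia, read 1705, 1216 and 552, Kcnmb1, a potassium channel subunit of smooth muscle, read 395, 351 and 158, and Ppbp, a chemokine of platelets, read 337, 336 and 154. Krt19 lay at the limit, with a first step of -0.48.

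Genes that turned on day 5 ended within 2-fold of where they began, with net changes of -0.57 to 0.46 (log2) in the 18 troughs. Only 10 of these 18 kept the shape after quantile normalization. Ptn, the growth factor pleiotrophin, read 1222, 534 and 1411, and its second bright probe set gave steps of -1.24 and 0.88. Ccn3, a matrix-associated signalling protein, read 625, 321 and 656, and its second bright probe set gave -0.86 and 1.25. Egr1, an immediate early transcription factor, read 4891, 1770.0 and 3279 in O(5R)SK and 3767, 1804 and 4326 in O(WT)SK, so that both courses were lowest on day 5. Med18, a subunit of the Mediator complex, read 489.6, 246 and 419, Armcx5 read 265, 131 and 221 and Gtpbp10 read 262, 163 and 292. The day 5 values of these troughs rest on a single array. Of the 18 troughs in O(5R)SK only 2 were also troughs in O(WT)SK, where 10 genes had that shape (0.112%). Peaks were led by Kctd7 at 326, 570.3 and 299.8, followed by Dnajc25 at 225, 368 and 241, Ssx2ip at 183, 284 and 182 and the alcohol dehydrogenase gene Adh7 at 405, 608 and 413. None of these 4 was a peak in O(WT)SK.

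Most core and naive factors of the pluripotency network did not rise 2-fold. Of 16 core and naive factors on the array 3 rose and 2 fell whatever their brightness, against 5.77% rises and 2.75% falls among all 18193 genes. The bright members numbered 5, of which 0 rose and 1 fell, with a median net change of 0.03 (log2) and -0.09 after quantile normalization. The one that fell was Klf2, a factor of the naive state, at 456, 291 and 179. Klf2 was below 200 on day 7 and passed the brightness limit through its earlier arrays. Klf5 read 622, 448 and 381, a net change of -0.69. Nanog read 5, 7.13 and 5.91 and Zfp42, another marker of embryonic stem cells, read 3.19, 12.9 and 10.1, values near the floor on all 3 days. The naive factors Tfcp2l1 and Esrrb, both among the dimmer genes, were highest on day 7, Tfcp2l1 at 54.8, 56.7 and 276 and Esrrb at 34.8, 48.8 and 89.1.

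A separate list held other genes expressed in embryonic stem cells. Over its 23 members on the array 9 rose and 0 fell, against 5.77% rises and 2.75% falls among all 18193 genes. Of its 6 bright members 3 rose and 0 fell, with a median of 0.85 (0.81 after quantile normalization). Jam2, an adhesion molecule of cell junctions, read 1049, 2504 and 4675 in O(5R)SK and 912, 2089.8 and 3704 in O(WT)SK. Its 3 other probe sets that were bright rose as well, by 1.06 to 1.55. Fgf4, a growth factor secreted by embryonic stem cells and a known target of OCT4 with SOX2, read 93.3, 254 and 416 in O(5R)SK and 106, 192 and 280.1 in O(WT)SK. Fgf4 was below 200 on day 3 in O(5R)SK, and of the 5 members above 200 on that day 2 rose. L1td1, an RNA-binding protein of pluripotent cells, read 847, 1192 and 2119 in O(5R)SK and 478, 585 and 902 in O(WT)SK. All 3 were higher on each later day in both combinations. The dimmer gene Fbxo15, known as a target of OCT4 and SOX2, read 37.4, 88.4 and 349 in O(5R)SK and 3.96, 28.3 and 53.4 in O(WT)SK. The other bright members changed less, Rif1 by 0.40, Lefty1 by 0.26 and Trim28 by -0.23.

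Epithelial genes moved unevenly. Of 6 bright members of the adhesion and junction list 3 rose and 1 fell, and the median was 0.98 (0.94 after quantile normalization, when 2 rose). Cdh1 and Dsc2 were below 200 on day 3 and passed the brightness limit through later arrays. Over all 21 members on the array 9 rose and 1 fell, against 5.77% rises and 2.75% falls among all 18193 genes whatever their brightness. Cdh1, which encodes E-cadherin, read 133, 256 and 665 in O(5R)SK and 102, 170.1 and 252 in O(WT)SK, a net change of 2.19 and 1.18. Dsp, the plaque protein desmoplakin, read 743, 1272 and 1851, and Dsc2, a desmosomal cadherin, read 127, 202 and 303. Cdh1, Dsp and Dsc2 followed a graded course as deposited, which Dsc2 lost after quantile normalization with a net change of 0.99, while Krt19 went the other way, as given above. Perp and Pkp1, both of desmosomes, changed by 0.80 and 0.77. The protease inhibitor gene Spint2, the 1 bright member of a list of epithelial regulators, read 436, 514 and 943. Among dimmer genes, Krt8 read 90.6, 114 and 239.5, Epcam, an epithelial adhesion protein, read 68.9, 54.3 and 166, and Cldn3, a tight junction protein, read 5.82, 40.6 and 115. The summed intensity of the 6 epithelial markers was 506, 678 and 1476 in O(5R)SK and 534, 670.2 and 843 in O(WT)SK, and 5 of the 6 were not bright.

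Among regulators of the mesenchymal state Tgfb3 was the 1 that changed 2-fold by the probe set used. Of 14 bright genes of the epithelial to mesenchymal transition 0 rose and 1 fell, with a median of 0.16. Zeb2, a repressor of Cdh1, read 356, 421 and 491 and thus moved by 0.45, and Tcf4, a transcription factor, read 1290.3, 1819.7 and 2177, a change of 0.75. The probe sets of Zeb2 disagreed, since 2 other bright ones changed by 1.25 and -0.38. Those of Tcf4 had the same direction, with changes of 0.44 to 1.01 in its 4 other bright probe sets. In the list of mesenchymal surface and cytoskeletal genes 1 of 13 rose and 1 fell. Nt5e, the ecto-nucleotidase CD73, read 106, 336 and 493, while Itga5, the fibronectin-binding integrin subunit, read 619, 385 and 184. Nt5e was below 200 on day 3 and Itga5 on day 7, and both passed the brightness limit through their other arrays. Of the 12 members above 200 on day 3 0 rose, and of the 12 above 200 on day 7 0 fell. None of 15 bright collagen genes rose or fell, with a median of -0.07. That count lies near the shares of all bright genes, of which 2.86% rose and 1.3% fell. Among 19 other matrix genes 2 rose. Fmod, the collagen-binding proteoglycan fibromodulin, read 224, 462 and 1417, and its 3 other bright probe sets rose by 2.51 to 2.80. Ecm1 read 3789, 5738 and 7654. Plat, tissue plasminogen activator, was the 1 riser of 11 bright matrix proteases and inhibitors, at 259, 402 and 635.

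Contractile and stress fibre genes had net changes below 0, most of them less than 2-fold. Of 19 members, all bright, 0 rose and 4 fell, against 2.86% rises and 1.3% falls among all bright genes. The list median was -0.61, against -0.01 over all bright genes. The net change was below 0 in all 19 as deposited and in 18 after quantile normalization, where the median was -0.39 and 5 fell. Both steps were negative in 18 of the 19, against 30.1% of all bright genes. The brightest of these genes lie in the intensity range above 10000, whose median shifted by -0.21 in O(5R)SK as deposited. In that range the median was -0.02 after quantile normalization and 0.0008 in O(WT)SK. Ankrd1, a sarcomere-associated target of mechanical signalling, read 12989, 7483 and 4221. Cnn1, the smooth muscle calponin, read 9280.4, 8083 and 4246, mostly after day 5. Synpo2, an actin-bundling protein, read 436, 201 and 193, nearly all of it before day 5, and Lmod1 was given above. Synpo2 was below 200 on day 7, and of the 18 members above 200 on that day 3 fell. Acta2, smooth muscle actin, read 38225, 34956 and 27402 in O(5R)SK and 37572, 37268 and 38533 in O(WT)SK, and Tagln, transgelin, read 27584, 24736 and 18069 in O(5R)SK and 26949, 27019 and 24265 in O(WT)SK. Both genes lie above 10000 and their values are as deposited, so the shift of that range is part of this contrast. Over the list the median in O(WT)SK was -0.35, with 0 rises and 4 falls. The skeletal muscle list had 2 bright members, which moved in opposite ways. Acta1, skeletal actin, fell with 10822, 6242 and 3115, whereas Myh1, a skeletal myosin heavy chain, rose with 234, 664 and 1026.

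Muscle actins and many contractile genes are known targets of serum response factor, which binds the CArG box, so 2 promoters are shown, of Acta1 from the skeletal muscle list and of Myl9, a myosin light chain of the contractile list. Myl9 read 25429.5, 21394 and 12788, a net change of -0.99 as deposited, and was chosen after its values and its motif were seen. The windows are from RefSeq on GRCm38.p6, run 5′ to 3′ from 250 bases before the gene's start to 50 after it, and capitals mark the CArG box, searched on both strands. Acta1 lies at chr8:123894726-123895025 on the minus strand and Myl9 at chr2:156775214-156775513 on the plus strand.
Acta1: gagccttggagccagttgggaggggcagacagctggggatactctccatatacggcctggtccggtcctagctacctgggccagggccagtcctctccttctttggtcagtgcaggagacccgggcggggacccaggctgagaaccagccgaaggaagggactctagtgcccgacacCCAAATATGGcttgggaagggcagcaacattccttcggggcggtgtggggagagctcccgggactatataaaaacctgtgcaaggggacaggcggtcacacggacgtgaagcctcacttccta
Myl9: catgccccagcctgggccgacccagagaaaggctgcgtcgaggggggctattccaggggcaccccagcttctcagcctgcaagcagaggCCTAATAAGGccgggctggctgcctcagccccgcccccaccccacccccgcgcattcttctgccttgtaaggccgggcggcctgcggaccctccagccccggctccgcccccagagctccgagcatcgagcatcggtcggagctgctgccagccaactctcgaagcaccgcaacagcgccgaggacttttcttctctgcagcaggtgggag
Each window holds 1 match, and 1.63% of 32851 promoters of that length hold at least 1. Of the 19 contractile genes 15 had a promoter in the table and 3 of these held a match, Cnn2, Myl9 and Vcl. A match is a description of the letters and says nothing of binding.

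**Figure D4:**
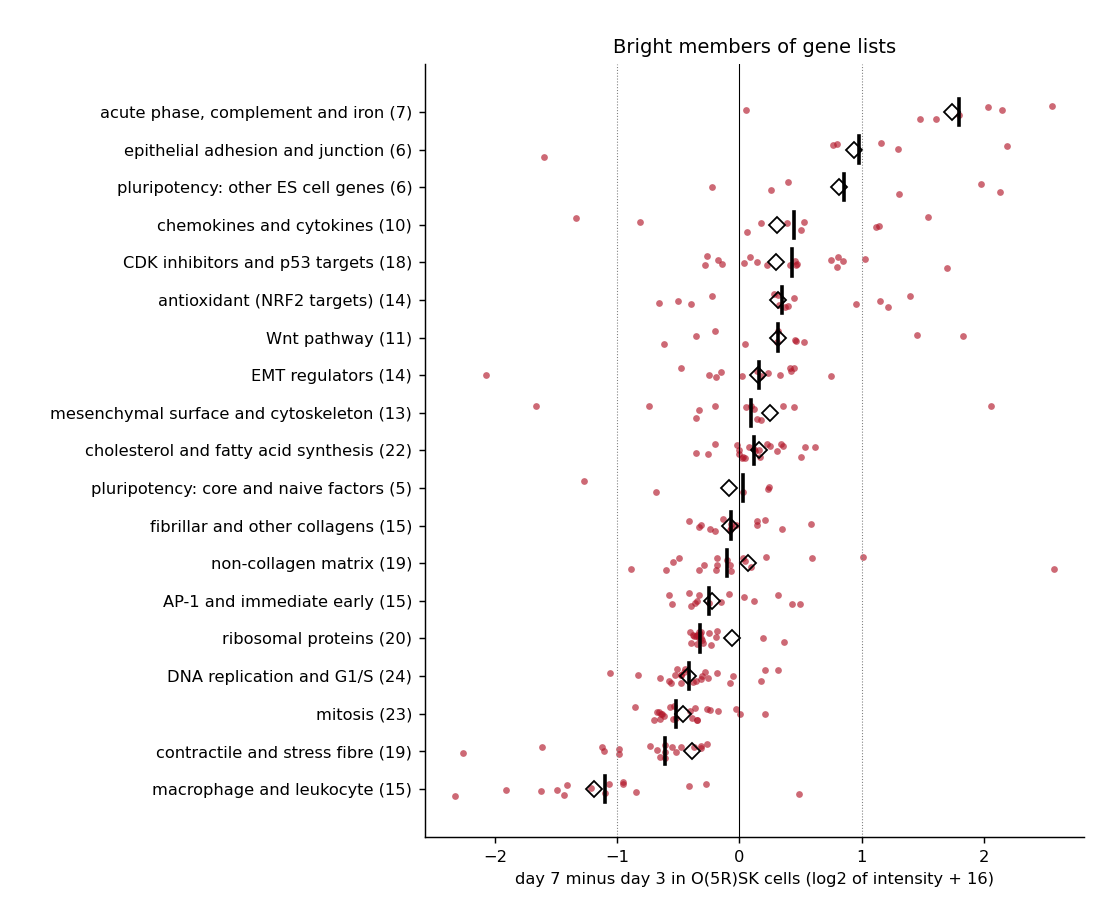
Net change from day 3 to day 7 in O(5R)SK (log2 of intensity + 16) of the bright members of 19 gene lists, with the number of members in brackets. Each point is 1 gene (vertical scatter within a row is for display), thick bars are medians of the values as deposited and open diamonds are medians after quantile normalization. Dotted lines mark 2-fold. All 19 contractile members lie below 0 and all 7 acute-phase members above it.

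Of 15 acute-phase, complement and iron genes on the array 9 rose and 0 fell, against 5.77% rises and 2.75% falls among all 18193 genes whatever their brightness. Of 7 bright members 6 rose, with a median of 1.79 (1.74 after quantile normalization), but 3 of these, Cp, Scara5 and Saa3, were below 200 on day 3 and passed the brightness limit through their later arrays. Among the 4 that were above 200 on day 3 already, a split made after the values were seen, 3 rose. The complement proteases C1s1 and C1ra read 451, 738 and 1604 and 344, 610.2 and 1083, and Serping1, which inhibits them, read 389, 529 and 1114. Cp, the copper-carrying ferroxidase ceruloplasmin, read 89.9, 199.8 and 418. Scara5, a ferritin receptor, read 89.3, 245 and 605, and Saa3 was given above. The 6 risers were highest on day 7, and Slc39a14, a metal transporter, was the member that did not rise, at 875, 795 and 909.6. Of the 8 members that were not bright, Lbp, which carries bacterial lipopolysaccharide, read 29.7, 80.3 and 398 and Steap4, a metalloreductase, read 59, 131 and 231. Orm1, Hp, Serpina3n and Lcn2, further acute-phase genes of liver, stayed under 13 on all 3 days. In O(WT)SK the list median was 1.82, and 6 of the 7 rose.

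Chemokines and cytokines divided. Of 10 bright members 3 rose and 1 fell, against 2.86% rises and 1.3% falls among all bright genes. Over all 20 members on the array 6 rose and 2 fell, against 5.77% and 2.75% among all genes. Il6, a cytokine that senescent fibroblasts secrete, read 592, 865 and 1305 in O(5R)SK and 392, 1047 and 1492 in O(WT)SK. Ccl2, a chemokine for monocytes, read 1595, 2581 and 3542, and Il1rn was given above. Il1rn was below 200 on day 3 in O(5R)SK, and of the 9 members above 200 on that day 2 rose. Csf1, the growth factor of macrophages, fell with 8772, 5639 and 3456 in O(5R)SK and 8615, 5251 and 2763 in O(WT)SK. The course of Csf1 thus ran against that of Il6 and Ccl2 in both combinations. The list median was 0.45 (0.31 after quantile normalization), with steps of -0.09 before and 0.47 after day 5.

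Of 25 macrophage and leukocyte genes on the array 0 rose and 14 fell, against 2.75% falls among all genes. Of 15 bright members 9 fell, 3 of them at 200 or below on day 7 and bright through earlier days, with a median of -1.11 (-1.19 after quantile normalization, when 10 fell). Lyz2, a lysozyme of macrophages, read 5824, 3008 and 1874. Lyz1, another lysozyme gene on the list, read 10243, 5054 and 2712. Its second bright probe set gave steps of -1.06 and -1.11, and its dim probe set read 29.9, 28.4 and 25.3. Csf1r, the receptor for Csf1, read 845, 495 and 384, Tyrobp, a signalling adaptor of myeloid cells, read 766, 398 and 261, and Mpeg1, a pore-forming protein of macrophages, read 709, 313 and 256. In each of these 5 genes the first step was the larger by the probe set used. Over the list the median step was -0.89 before and -0.27 after day 5. The exception was Laptm5, a lysosomal membrane protein of blood cells, at 548, 687 and 775. The summed intensity of the 7 fixed macrophage markers was 7866, 4240 and 2874 in O(5R)SK and 8393, 4702 and 3415 in O(WT)SK, and 6 of the 7 were lower on day 7 than on day 3 in O(5R)SK, with Fcgr1 at 27.7, 30.2 and 41.7 the other. In RNA from a whole culture, fewer cells of a type and less RNA per cell cannot be told apart. Siglecg, Clec4d, Csf1 and the dimmer gene Ccl5 fell alongside these markers, whose part in those changes was not tested.

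Proliferation genes mostly had net changes below 0, and none of the mitotic genes passed 2-fold. Among 23 bright mitosis genes 21 had a net change below 0, with a median of -0.52 (-0.46 after quantile normalization), against 51.1% below 0 among all bright genes. Tpx2, a spindle assembly factor, read 1398, 911 and 766, and Aurka, the mitotic kinase it activates, read 1226, 927 and 749. Of 24 bright genes of DNA replication and the G1 to S transition 21 were below 0, with a median of -0.42, and 1 fell. That gene was Ccne1, cyclin E1, at 1067, 698 and 502, whose second bright probe set changed by -0.74, less than 2-fold. Most of these changes lay before day 5, where the median steps were -0.34 and -0.33, against -0.12 and -0.08 afterwards. The O(WT)SK medians were -0.48 and -0.41.

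Cell cycle inhibitors of the Cdkn2 locus went up. Cdkn2a, which encodes p16 and ARF, read 881, 1921 and 2905 in O(5R)SK and 1123, 1921 and 2871 in O(WT)SK. Cdkn2b, its neighbour encoding p15, read 3638, 5833 and 7457 in O(5R)SK and 3369, 6140.5 and 7104 in O(WT)SK. Both were higher on each later day in both combinations. They were the 2 risers among 18 bright members of a list of CDK inhibitors and p53 targets. Shares over all bright genes were 2.86% rises and 1.3% falls. The list median was 0.43 (0.30 after quantile normalization). Cdkn1a, the p53 target p21, was bright and level at 12652, 12749 and 11194. Gadd45a and Trp53inp1, both p53 targets, changed by 0.85 and 0.81.

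The metallothioneins, small proteins that bind zinc and copper, rose in the list of antioxidant genes. There 3 of 14 bright members rose and 0 fell, against 2.86% rises and 1.3% falls among all bright genes. Over all 16 members on the array 5 rose and 0 fell, against 5.77% and 2.75% among all genes. Mt2 read 3273, 7040.5 and 8648 in O(5R)SK and 3874, 5262 and 8176 in O(WT)SK, an early one-step rise in O(5R)SK. Mt1 read 5274, 9086 and 11753 in O(5R)SK and 4839.8, 9448 and 13527 in O(WT)SK. The other bright riser was Aldh3a1, an aldehyde dehydrogenase, at 1658, 2738 and 3880.0. Classical NRF2 targets were closer to level, with Hmox1, haem oxygenase, at 756, 923 and 1004 and Nqo1, a quinone reductase, at 1211, 1329 and 1656. Mt1 and Mt2 are the best known targets of the metal-responsive factor MTF1, and their promoters are shown because the genes moved together. Capitals mark TGCNCNC on either strand, where N is any base. This pattern includes the core of the metal response element but is broader, so a match need not be that core. Both lie on the plus strand of GRCm38.p6 in RefSeq, Mt1 at chr8:94178839-94179138 and Mt2 at chr8:94172368-94172667.
Mt1: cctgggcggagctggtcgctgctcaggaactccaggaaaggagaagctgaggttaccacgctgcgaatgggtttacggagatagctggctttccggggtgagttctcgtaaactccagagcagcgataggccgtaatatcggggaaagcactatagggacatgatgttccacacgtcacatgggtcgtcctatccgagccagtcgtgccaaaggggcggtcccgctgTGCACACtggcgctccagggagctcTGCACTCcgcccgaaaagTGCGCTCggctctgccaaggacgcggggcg
Mt2: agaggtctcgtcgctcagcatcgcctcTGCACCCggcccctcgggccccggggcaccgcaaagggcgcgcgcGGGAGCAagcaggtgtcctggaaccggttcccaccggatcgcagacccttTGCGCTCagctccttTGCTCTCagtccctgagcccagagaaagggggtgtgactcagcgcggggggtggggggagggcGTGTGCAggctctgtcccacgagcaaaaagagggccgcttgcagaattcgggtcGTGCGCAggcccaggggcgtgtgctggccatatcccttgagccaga
The window of Mt1 holds 3 matches and that of Mt2 holds 6. At least 1 match is in 51.0% of 32851 promoters of that length, at least 3 in 7.10% and at least 6 in 0.225%. The letters alone do not show that the factor binds.

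In the signalling lists a few bright members changed 2-fold. Of 11 bright genes of the Wnt pathway 2 rose, both secreted antagonists, and 0 fell. Among all bright genes 2.86% rose and 1.3% fell. Over all 21 Wnt members on the array 6 rose and 0 fell, against 5.77% and 2.75% among all genes. Dkk2 read 778, 1578 and 2802 and Sfrp1 read 209, 306 and 599. Fzd2, a receptor, read 1344, 1054 and 868, and Lef1, a nuclear effector, read 155, 228 and 231, so that neither reached 2-fold. Of 13 bright BMP and Id genes 1 rose, Grem1, a secreted BMP antagonist, at 1469, 2161 and 3441. Id2, an inhibitor of bHLH factors that BMP signals raise, read 3422, 4614 and 5714 in O(5R)SK and 3614, 3843 and 3547 in O(WT)SK. Its net change in O(5R)SK was 0.74 by this probe set but 0.12 by its second bright probe set. Among 15 growth factor genes, Fgf7 read 213, 410.4 and 536, Igfbp4, which binds insulin-like growth factors, read 610.0, 924 and 1242, and the imprinted growth factor gene Igf2 fell with 3207, 1924 and 1226. Igfbp4 changed by 1.01 as deposited and by 0.96 after quantile normalization, on either side of 2-fold, and its 3 other bright probe sets changed by 0.57 to 0.98. The second bright probe set of Fgf7 changed by 0.70. The lipoprotein lipase gene Lpl, on the adipocyte list, fell with 3708, 2021 and 1008.

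Dimmer genes, with mean intensities from 50 to 200 in O(5R)SK, changed more often on the scale used. Of 2841 such genes 260 rose between day 3 and day 7 (9.15%) and 51 fell (1.8%), and after quantile normalization 172 rose (6.05%) and 86 fell (3.03%). In O(WT)SK 194 rose (6.83%) and 97 fell (3.41%). The leading rise was Cd3g, a chain of the T cell receptor complex, at 1.26, 57 and 182 in O(5R)SK and 28.8, 53.5 and 72.2 in O(WT)SK. Necab1, a calcium-binding protein of neurons, read 7.3, 71.4 and 249 in O(5R)SK and 20, 0.383 and 19.6 in O(WT)SK, and Slc17a6, a vesicular glutamate transporter, read 7.71, 2.19 and 215 in O(5R)SK and 3.72, 14 and 2.54 in O(WT)SK. Separate, dimmer probe sets changed by 2.17 for Slc17a6 and by -0.0049 for Necab1, which read 12.9, 48.9 and 12.8 there. Cpne4, a calcium-dependent membrane-binding protein, read 3.16, 41.8 and 165 in O(5R)SK and 16.2, 9.77 and 31 in O(WT)SK, and Aox3, an aldehyde oxidase, read 19.3, 96.5 and 315 in O(5R)SK and 13.6, 20.5 and 66.8 in O(WT)SK. All 5 were highest on day 7 in O(5R)SK. The leading falls included Ccl5, a chemokine, at 131, 39.8 and 3.32 in O(5R)SK and 229, 39.4 and 23.4 in O(WT)SK, and Cd36, a fatty acid receptor, at 194, 62.5 and 23.9 in O(5R)SK and 246, 93.3 and 58 in O(WT)SK. Ica1l read 282, 116 and 55.1 in O(5R)SK, and Aldh4a1, a mitochondrial enzyme of proline breakdown, read 85.2, 105 and 14.4 in O(5R)SK and 89.9, 90 and 90.3 in O(WT)SK.

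Net changes mostly had the same sign in O(WT)SK, whereas many genes did not meet the limits of the same course there. The difference between combinations was not tested. Of the 265 bright genes with a course in O(5R)SK 244 had a net change of the same sign in O(WT)SK and 117 had the same course there. A gene without the same course can have missed a limit narrowly. Lrrc15, an early fall in O(5R)SK, met no course in O(WT)SK, with steps of -0.95 and -0.11. Over the 8893 bright genes the net changes in both combinations correlated with r = 0.754, across genes that share probe sets, array type and scaling and are not independent replicates. In O(WT)SK 208 of the same genes rose (2.34%) and 109 fell (1.23%). Of the 254 that rose in O(5R)SK 154 also rose in O(WT)SK, and of the 116 that fell 70 also fell there. The O(WT)SK arrays held 111 graded rises (1.25%), 53 graded falls (0.596%), 16 early rises (0.18%), 14 early falls (0.157%), 11 late rises (0.124%), 2 late falls (0.0225%) and 10 peaks (0.112%). The graded rise was shared by 71 genes, out of 132 in O(5R)SK and 111 in O(WT)SK, and the graded fall by 31, out of 58 and 53. The one-step courses shared fewer genes, 5 of the 21 early rises, 6 of the 16 early falls, 2 of the 13 late rises and 0 of the 3 late falls of O(5R)SK. Across those 132 genes the median net change was 1.70 in O(5R)SK and 1.37 in O(WT)SK, but the genes were chosen on their O(5R)SK values, so the gap is partly set by that choice. Genes past 2-fold in O(5R)SK with the other sign in O(WT)SK numbered 11 of 370, namely Aspn, Gorasp1, Inpp1, Lsm7, Mrpl33, Rgs16, Tspan12, Wdr44, Zfp62, Zfp991 and Zfp995. Among them 2, Mrpl33 and Zfp62, also changed by more than 0.5 (log2) in O(WT)SK, and the other 9 changed by less there. Aspn, the matrix proteoglycan asporin, read 108, 197 and 461 in O(5R)SK and 137, 121 and 134 in O(WT)SK, and Rgs16, a regulator of G protein signalling, read 2358, 3279 and 5022 in O(5R)SK and 3121, 3281 and 2265 in O(WT)SK. Their other bright probe sets gave smaller changes, 0.74 for Aspn and 0.32 and 0.02 for Rgs16, none of them 2-fold, and the same held for Inpp1 at 0.09 and Zfp995 at 0.50. Lsm7, a subunit of the RNA-binding LSm ring, fell with 1137, 497 and 471 in O(5R)SK, against 613, 667 and 735 in O(WT)SK, where the day 3 level was lower. These 11 genes were named after their values were seen.

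**Figure D5:**
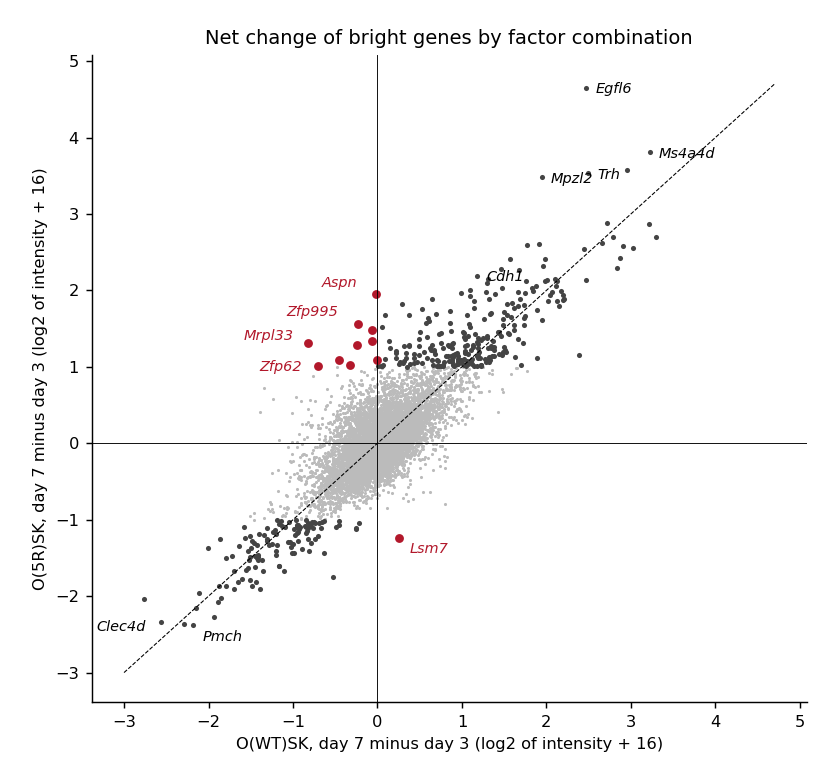
Net change from day 3 to day 7 of each bright gene in O(5R)SK (vertical) and O(WT)SK (horizontal), both in log2 of intensity + 16, with the dashed line marking equal change. Dark points passed 2-fold in O(5R)SK, and the 11 red points among these 370 had the other sign in O(WT)SK.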

How the data were processed

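Expression was measured on 6 Affymetrix arrays of reprogrammed mouse embryonic fibroblasts, 3 of them O(5R)SK, grouped by the combination and day in the sample labels. The deposited intensities are linear, with 1 value for each probe set on an array, and the submitters' processing notes name affy as the tool the authors used. Its version, how probes were summarised and how background was handled are not given in the sources used. Each array had a 2% trimmed mean of 500 while its quantiles differed from those of the others, which shows scaling without quantile normalization. Precision is limited by the number of arrays.

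The array holds 45101 probe sets. In the platform annotation 34958 of them name 1 gene, 932 several and 9211 none, and 34754 of the first were found in a RefSeq table (GRCm38.p6), which changed 0 symbols. The 64 control probe sets were left out, and 0 columns of per-sample values went unused. Where a gene had several probe sets (9010 genes), the one with the highest O(5R)SK mean was used. Log2(intensity + 16) was computed from the deposited intensities, and quantile normalization was run over the 3 O(5R)SK arrays for the values so marked. Calls were made at 2-fold, and at 0.5 (log2) for the smaller step. The script was tested on simulated data. Python 3.11.15, pandas 2.3.3, numpy 2.4.6 and matplotlib 3.10.9 were used.

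Named genes are, for each course, the 6 with the largest change (net for graded courses, the moving step for one-step courses, the smaller step for peaks and troughs) that keep their course under both scalings, and the 6 largest net rises and falls, predicted genes skipped. To these were added Pou5f1, Sox2, Klf4 and Myc, up to 4 bright members of each gene list with the largest net change, and the 5 largest net rises and falls of dimmer genes. Further members of lists were named after their values were seen. The genes, lists and limits were chosen with earlier results of these data known, so a list's count is no independent support for its direction. The alternatives tried were quantile normalization, a common median, a pseudocount of 64, the mean of probe sets, probe sets chosen over all 6 arrays, and a brightness limit of 500 or none.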

Additional observations from a re-analysis of the deposited data

Results flagged for a closer look

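In 3 genes the O(5R)SK and O(WT)SK courses moved clearly in opposite ways between day 3 and day 7. Each combination had 1 array per day, so the difference was not tested. Mrpl33, a protein of the mitochondrial ribosome, read 1545, 3414 and 3849.6 on days 3, 5 and 7 in O(5R)SK, a net log2 change of 1.3079, against 1776, 1442 and 1000.2 in O(WT)SK, a net change of -0.82. Its other probe set was too dim to compare. Zfp62, a zinc finger protein, read 142, 192 and 303 in O(5R)SK, a net change of 1.0122, against 143, 114 and 81.1 in O(WT)SK, a net change of -0.71, and after quantile normalization its change in O(5R)SK was 0.84, below 2-fold. A dimmer probe set of Zfp62 changed by 0.55 in O(5R)SK. The dimmer gene Tmc8, of a family of transmembrane proteins, read 182, 124 and 33.8 in O(5R)SK, a net change of -1.9933, against 47.3, 36.7 and 189 in O(WT)SK, a net change of 1.69, made by the day 7 array alone.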

How the results depend on the processing

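With 1 array per day in each combination there is no replicate error. No trend over days and no model of day and combination over the 6 arrays was fitted, and no array was left out, since each step already leaves 1 day unused. No paired analysis was possible because the labels give no replicate numbers and the results come from no test, so that arrays matched by day are set side by side only. Signal over background limits dim genes, since signals near the floor move little on the log2 scale. Counts that moved by more than 1.5 times are given by setting. With no limit on brightness, 1050 genes rose and 501 fell over the course, 610 rose and 497 fell before day 5, 616 rose and 333 fell after it, and the graded, early and late rises numbered 310, 307 and 259 and the falls 117, 199 and 132. With a limit of 500, 131 genes rose over the course, 37 rose and 17 fell before day 5, 21 rose and 7 fell after it, and the graded, early and late rises numbered 64, 12 and 3 and the falls 38, 9 and 1. With arrays set to a common median, 35 genes rose and 25 fell after day 5, and graded rises, graded falls and late falls numbered 85, 91 and 5. With quantile normalization, 17 genes fell after day 5, late falls numbered 5, and the ribosomal protein median was -0.063. With probe sets of a gene averaged, 165 genes rose over the course and 40 before day 5, graded rises numbered 85 and early falls 8, and the acute-phase median was 1.48. With a pseudocount of 64, 37 genes rose and 6 fell after day 5 and late falls numbered 1. The cause of these shifts was not tested, apart from the limits on brightness, which change the number of genes counted. Taking probe sets by their mean over all 6 arrays moved no count by more than 1.5 times. Of 549 changes of named genes (net and both steps of 183 genes), 121 moved by more than 0.24 (log2) with averaged probe sets, 57 with a pseudocount of 64, 7 with probe sets chosen over 6 arrays and 5 with quantile normalization, and 0 of them reversed a called change. A common median moves every gene by about the same amount, below that limit by construction, so it bears on the counts of rises and falls only.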

Other observations

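By the probe sets used, housekeeping and positional genes of O(5R)SK stayed within 2-fold. Among all bright genes 2.86% rose and 1.3% fell, so counts of 0 in lists of 12 to 22 genes lie near those shares. None of 20 bright ribosomal protein genes rose or fell. Their median net change was -0.32 as deposited and -0.063 after quantile normalization, so its size depended on the scaling. Net changes were below 0 in 18 of the 20 as deposited and in 15 after quantile normalization. Among 20 bright genes of the respiratory chain the median was -0.08 as deposited and 0.03 after quantile normalization. Of 14 glycolysis genes 0 changed 2-fold by the probe set used, with Slc2a3, a glucose transporter, at 2007, 2971 and 3503 and Ldha, lactate dehydrogenase, at 16386, 14170.0 and 10776. The second bright probe set of Slc2a3 changed by 1.36, past 2-fold. None of 22 genes of cholesterol and fatty acid synthesis changed 2-fold by the probe set used, with a median of 0.12. For Scd2 the probe set used changed by 0.50 and the second bright one by 1.23. Of 12 bright Hox genes, which mark the body position that fibroblasts came from, 0 changed 2-fold, and Hoxc8 read 2691, 3748 and 4402. Among genes of DNA methylation and its removal, Tet2, a methylcytosine dioxygenase, read 229, 284 and 481, a net change of 1.02 as deposited and 0.89 after quantile normalization. The BMP and Id, heat shock, and polycomb lists gave medians between -0.07 and 0.01.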
